A study of Homo sapiens with 2 samples.

Results

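LINC00478, whose current symbol is MIR99AHG, is a long non-coding RNA gene on the plus strand of chromosome 21 that hosts the microRNA genes MIR99A, MIRLET7C and MIR125B2. It was represented by 19 of the 368 peaks in the list of RNA regions recovered with FLAG-USP39. The peaks were chosen by the gene name that the list assigns to each, and the gene was selected on its count of listed peaks, so that count is a description and supports nothing below. All 19 were assigned to introns.

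The data came from A2780, an established human ovarian cancer cell line, with ectopic expression of Flag-USP39. Cells were cross-linked, nuclear lysates were immunoprecipitated with an anti-FLAG antibody, and RNA was sequenced (RIP-seq). There was 1 library of precipitated RNA and 1 input library from the same tagged cells, with no replicate of either, and the sample labels name no untagged or control-antibody library. The list gives the position, region, transcript and gene of each peak but no read count, enrichment, strand or error rate, so the depth behind each peak was unknown and no value below carries a replicate error.

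MicroRNAs are cut from hairpins in longer transcripts, and the let-7, miR-99 and miR-125 families are often encoded side by side within a long non-coding host RNA. The let-7 family represses HMGA2, the main gene of the study, through sites in the 3′ end of its mRNA. USP39 is a protein of the spliceosome that acts where the tri-snRNP joins the assembling complex, so its peaks are described here by their place among introns, exons and splice sites.

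The 5p microRNAs of the host gene are shown because the distances below are measured to their hairpins. Sequences were taken from RefSeq (GRCh38.p14), read 5′ to 3′, with the seed, bases 2 to 8, in capitals.
hsa-miR-99a-5p: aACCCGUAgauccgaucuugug
hsa-let-7c-5p: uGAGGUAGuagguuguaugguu
hsa-miR-125b-5p: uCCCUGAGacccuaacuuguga

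The let-7c-5p seed is shared by 11 mature human microRNAs in the same table, among them let-7a-5p, let-7i-5p and miR-98-5p. The seed of miR-99a-5p is carried by 3 (with miR-99b-5p and miR-100-5p) and that of miR-125b-5p by 3 (with miR-125a-5p and miR-4319).

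Only 3 of the 19 peaks overlapped an annotated exon of the host gene, and the junctions inside those peaks are printed here to show what lies at each. All are on the plus strand of hg19 (GRCh37), read 5′ to 3′, with exon bases in capitals and intron bases in lower case, 20 bases on each side. The first is the 5′ splice site of canonical exon 3 in peak 1 (chr21:17443699-17443738). The others are the 3′ and 5′ splice sites of an alternative exon in peak 14 (chr21:17667118-17667157 and chr21:17667364-17667403) and of another in peak 15 (chr21:17681870-17681909 and chr21:17682067-17682106).
Peak 1, 5′ splice site: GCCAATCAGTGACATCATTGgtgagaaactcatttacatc
Peak 14, 3′ splice site: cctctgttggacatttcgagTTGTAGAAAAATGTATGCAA
Peak 14, 5′ splice site: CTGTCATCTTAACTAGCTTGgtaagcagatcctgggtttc
Peak 15, 3′ splice site: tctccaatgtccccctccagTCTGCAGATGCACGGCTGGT
Peak 15, 5′ splice site: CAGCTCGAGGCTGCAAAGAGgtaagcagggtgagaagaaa

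Each of the 5 junctions had the usual GT or AG at the intron edge. The peak nearest to let-7c was peak 19, and the middle 1 of its 3 bins, 205 bases in intron 8 on the plus strand (chr21:17934016-17934220, hg19), is shown without capitals because it holds neither of the motifs counted below.
Peak 19, middle bin: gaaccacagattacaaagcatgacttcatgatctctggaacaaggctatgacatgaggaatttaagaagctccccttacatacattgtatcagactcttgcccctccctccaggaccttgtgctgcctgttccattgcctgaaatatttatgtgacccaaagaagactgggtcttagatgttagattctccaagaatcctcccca

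The peaks were concentrated in the middle of the host gene and away from the microRNA genes. In GENCODE, MIR99AHG spanned 718068 bp (chr21:17300616-18018683), with 258 annotated transcripts and 407 distinct exons that together covered 8.20% of it. The transcript marked as canonical had 11 exons, and its introns are numbered here from the 5′ end. Of the 19 peaks, 15 lay in intron 5, 2 in intron 6 and 1 in intron 8, and 1 overlapped canonical exon 3 and ran into intron 3. Introns 1, 2, 4, 7, 9 and 10 held none. Intron 5 was the longest, at 160 kb, while intron 3 at 110 kb and intron 2 at 98.6 kb held 1 peak and 0. Per 100 kb, intron 5 had 9.35 peaks, intron 6 had 2.09, intron 8 had 1.44 and intron 3 had 0.908.

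**Figure D1:**
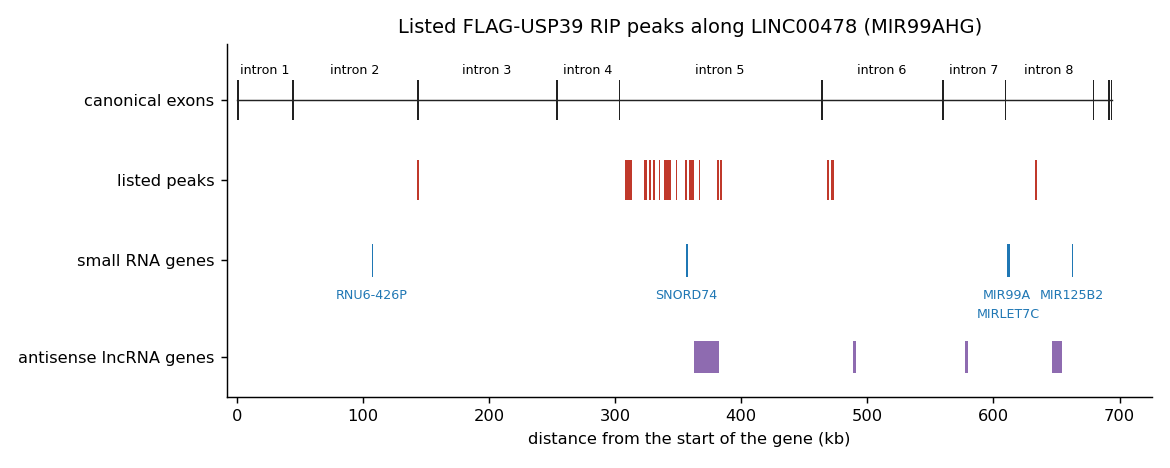
Map of LINC00478 (MIR99AHG) with the distance from the start of the gene in kb on the horizontal axis; black bars are exons of the canonical transcript, red bars the 19 listed peaks, blue bars small RNA genes and purple bars antisense lncRNA genes. Features too short to be seen are drawn at a fixed minimum width. The peaks cluster in intron 5, while the 3 microRNA genes lie in intron 8 with 1 peak.

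Before peak 1 lay 143 kb of the gene with no listed peak, and after peak 19 lay 84.3 kb with none. The list named 3 transcripts for the peaks, NR_027790.1 for the first 16, XR_244275.1 for the peaks of intron 6 and XR_244276.1 for peak 19. The peaks together covered 29930 bp, or 4.17% of the gene, and 6.10% of the span from the first to the last peak. Peaks of intron 5 made up 83.6% of these bases.

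Within intron 5 the peaks formed a run that began close to the 5′ end of the intron and stopped near its middle. The run went from chr21:17608476 to chr21:17684940 (hg19), 76465 bp, and peaks filled 32.7% of it. It began 5040 bp after the 5′ end of the intron, at 3.14% of its length, and ended at 50.8%. The remaining 79.0 kb up to exon 6 held no listed peak.

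**Figure D2:**
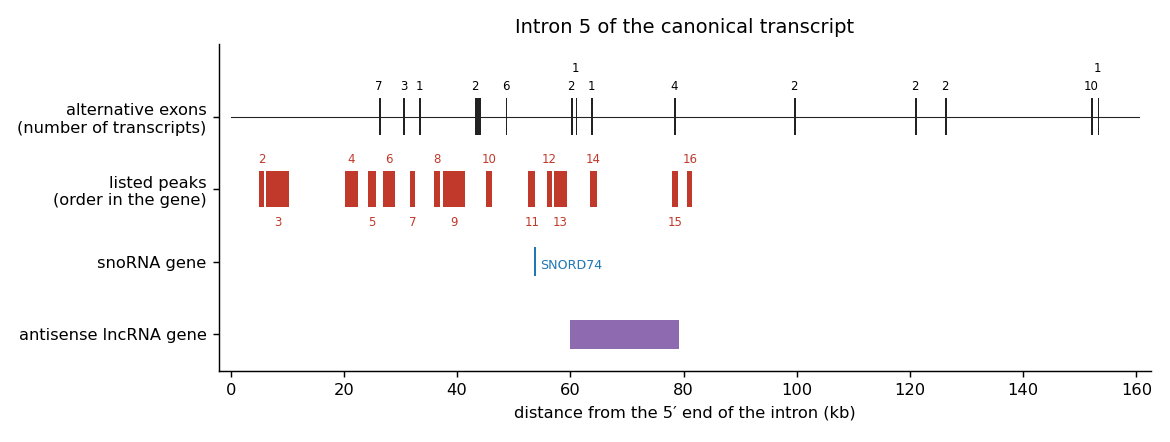
Intron 5 of the canonical transcript, with the distance from its 5′ end in kb; black bars are blocks of overlapping alternative exons lying wholly in the intron, with the number of transcripts that use each above them, and red bars are peaks 2 to 16, numbered in gene order. The blue bar is SNORD74 and the purple bar an antisense lncRNA gene; the shortest features are drawn at a fixed minimum width. The run of peaks stops near the middle of the intron, and 2 of the 14 blocks of alternative exon lie under a peak. Peaks cover 15.6% of the intron.

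The run held 3 close pairs of peaks. Peaks 2 and 3, 820 and 4100 bp wide, were 410 bp apart and led the run (chr21:17608476-17609295 and chr21:17609706-17613805). Peaks 8 and 9, 1025 and 3895 bp wide, were also 410 bp apart (chr21:17639431-17640455 and chr21:17640866-17644760), as were peaks 12 and 13 at 820 and 2255 bp (chr21:17659316-17660135 and chr21:17660546-17662800). These 3 pairs had the smallest gaps in the gene, 2 empty bins each, and in each pair the wider peak was the downstream one. Peaks 4 to 7, which lay between the first and second pair (chr21:17623646-17635945 in all), were 2255, 1435, 2050 and 820 bp wide, and peaks 10 and 11, between the second pair and the last, were 1230 bp each. The run ended with peaks 14 to 16, 1230, 1025 and 820 bp wide, of which the last was 1640 bp from its neighbour.

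In intron 6, peaks 17 and 18 (chr21:17768581-17769605 and chr21:17772066-17774525) were 1025 and 2460 bp wide and 2460 bp apart. They began 4575 and 8060 bp after the 5′ end of the intron, so both introns with more than 1 peak had their first peak about 5 kb in. Peak 19 in intron 8 (chr21:17933811-17934425) was the narrowest of the 19, at 615 bp, and began 24051 bp after the 5′ end of its intron.

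Measured at its midpoint, 18 of the 19 peaks (94.7%) lay in the 5′ part of their canonical intron, before the middle, and the exception was peak 16 at 50.5% of the length. The median was 22.7%. For HMGA2 the same count was 17 of 42 (40.5%, median 56.6%), and for intron peaks of the other genes it was 41 of the 83 (49.4%, median 50.6%) whose midpoint lay in a canonical intron of the annotated gene. Among peaks of other genes on chromosome 21 it was 4 of 6. The measure was chosen after the positions had been seen, and 15 of the 19 peaks sit in a single intron, so the share mainly restates where that run lies.

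**Figure D3:**
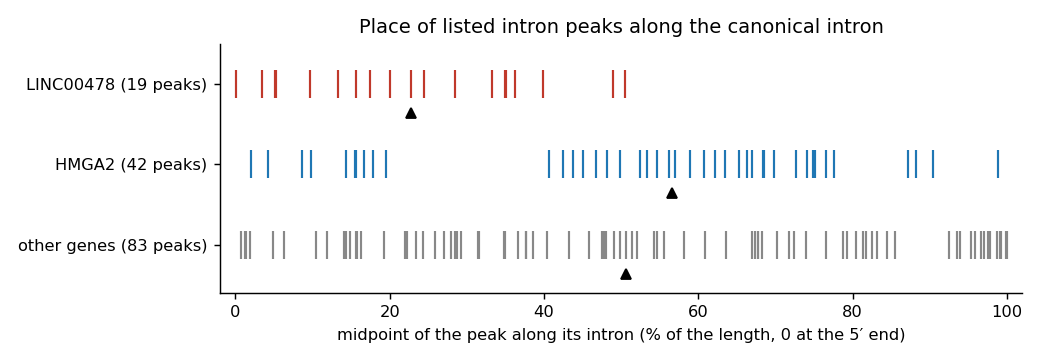
Midpoint of each listed intron peak along the canonical intron that holds it, in percent of the intron's length from its 5′ end, for LINC00478, HMGA2 and all other genes; each line is 1 peak and the triangles mark medians. LINC00478 peaks end at 50.5%, while those of HMGA2 and of the other genes reach 98.9% and 100%.

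Gaps between neighbouring peaks fell into 2 ranges. Of the 18 gaps, 3 exceeded 50 kb: 164 kb between peaks 1 and 2, 83.6 kb between peaks 16 and 17, and 159 kb between peaks 18 and 19. The other 15 ran from 410 to 13325 bp, with a median of 2460 bp, and over all 18 the median was 3075 bp or 15 bins. Within the run of intron 5 the 14 gaps had a median of 2358 bp. The list numbers its peaks in order along the chromosome, and 2 numbers were skipped within the run, 1 in the gap of 9.84 kb after peak 3 and 1 in the gap of 6.36 kb after peak 10. What those numbers held was not analysed here, so these 2 gaps may not have been empty of calls.

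**Figure D4:**
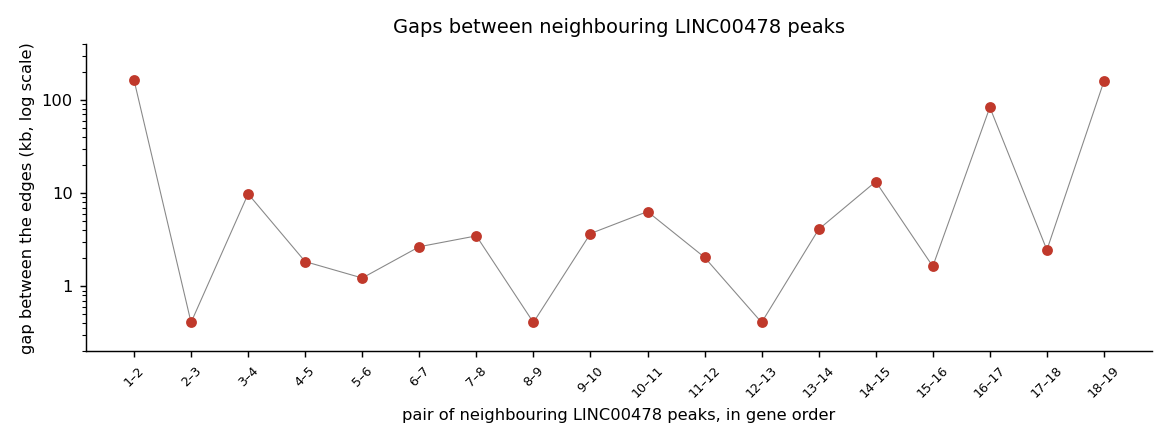
Gap between the facing edges of each pair of neighbouring LINC00478 peaks, in kb on a log scale, in gene order from left to right; the grey line only joins the points. Gaps of 164, 83.6 and 159 kb set off the peaks of introns 3, 5, 6 and 8, and 3 pairs are 0.410 kb apart.

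Peaks had been called on bins of 205 bp on chromosome 21, which set the resolution of every edge. The 19 peaks were between 3 and 20 bins wide, with a median of 6 bins (1230 bp), and 18 of them had 4 bins or more. The widest 2, peaks 3 and 9, held 26.7% of all peak bases. This width was ordinary for the chromosome. The 9 other intron peaks on chromosome 21, from 6 genes, had a median of 1435 bp, and all 29 other peaks there had a median of 1640 bp, with none under 3 bins. Intron peaks of all other genes had a median of 2 bins, and 55 of those 142 were a single bin, but 114 of them lay on chromosome 12, and no listed peak on chromosome 21 was that narrow. Widths on other chromosomes are given as descriptions, and chromosome 21 is the closer reference.

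Only 6 other genes had at least 5 listed intron peaks, all of them on chromosome 12. HMGA2 had 42 in a gene of 141832 bp, which was 29.6 peaks per 100 kb against 2.65 for LINC00478, and peaks covered 25.5% of it against 4.17%. Its median gap was 800 bp, or 4 bins. Closest to LINC00478 in density were CRADD, an adaptor of apoptosis signalling, with 6 single-bin peaks at 2.76 per 100 kb, and LOC100507065 (MSRB3-AS1), with 6 at 3.42 per 100 kb. LOC100288798 (SLC38A4-AS1), another long non-coding gene, had 5 peaks with a median gap of 53900 bp. LOC100129940 (HMGA2-AS1) and CCND2, which encodes cyclin D2, had 7 and 5 peaks at 22.7 and 14.1 per 100 kb. Intron 5 of LINC00478 taken alone, at 9.35 per 100 kb, lay between these groups. It was picked as the intron with the most peaks, while the other densities are those of whole genes, so the comparison is not of like with like. Among the 94 peaks that the list types as non-coding RNA, from 27 genes, LINC00478 held 20.2%.

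**Figure D5:**
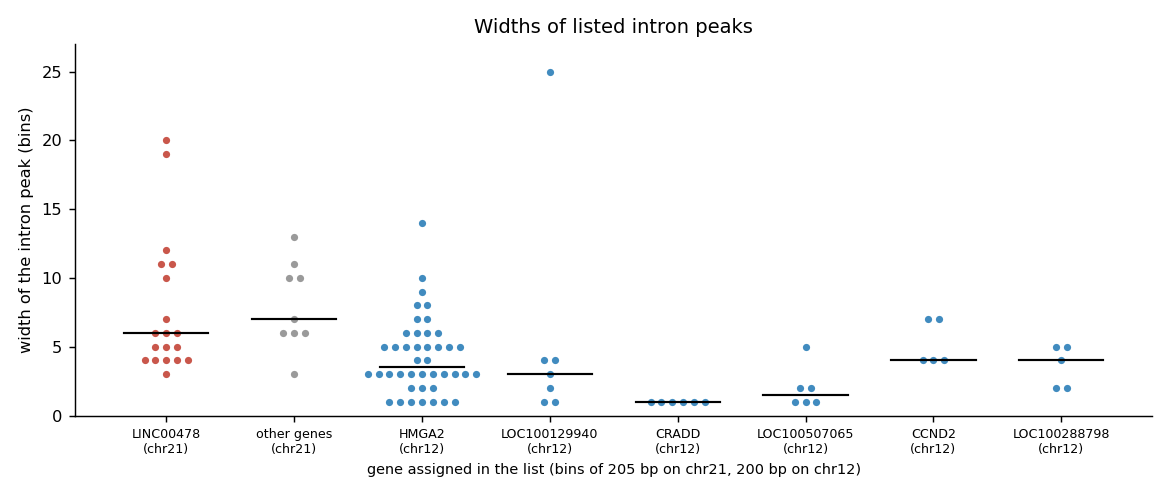
Width in bins of each listed intron peak of LINC00478 (red), of other genes on chromosome 21 (grey) and of the 6 other genes with at least 5 intron peaks, all on chromosome 12 (blue); each point is 1 peak and black lines are medians. LINC00478 peaks run from 3 to 20 bins, and its median of 6 bins is below the 7 of other genes on the same chromosome.

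Most peaks lay in stretches of intron with no annotated exon of any transcript. The 3 peaks that overlapped an exon were also the only ones that came within 100 bp of one of its splice sites (15.8%). For intron peaks of other genes that matched their annotated gene, 29 of 127 (22.8%) were near a splice site and 36 (28.3%) overlapped an exon. On chromosome 21 alone, 1 of 6 (16.7%) was near a splice site and 2 (33.3%) overlapped an exon. In LINC00478 the remaining 16 peaks were 457 to 8060 bp from the nearest exon, with a median of 2318 bp, and 10 of them were more than 1000 bp away. The nearest exon lay upstream for 10 of the 16 and downstream for 6.

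Peak 1 (chr21:17443451-17444270, 820 bp) was assigned to an intron, yet its first 268 bp lay in canonical exon 3 (chr21:17443434-17443718). That exon was used unchanged in 66 of the 258 transcripts, and its 5′ splice site in 74. The 3′ splice site of the exon lay 16 bp before the edge of the peak, which extended 552 bp into intron 3. In all, 82 transcripts had an exon under this peak, counting those with other starts and ends. It was the only peak of the 19 over a canonical exon.

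Peaks 14 and 15 lay over alternative exons within intron 5, annotated in 1 and 4 of the 258 transcripts. An exon is called used where a transcript is annotated with it, since its use in these cells was not measured. Peak 14 (chr21:17666901-17668130) held a whole exon of 246 bp (chr21:17667138-17667383), annotated in 1 transcript. Peak 15 (chr21:17681456-17682480) held the exon end at 17682086, a 5′ splice site of 4 transcripts whose exons start at different places, and a 3′ splice site at 17681890 of 1 of them. Exons lying wholly in intron 5 formed 14 blocks when overlapping ones were joined, each used in 1 to 10 transcripts. Of these, 9 lay within the run of peaks, and peaks covered 2 of the 9 and left 7 in the gaps. Peaks filled 32.7% of the run, so nothing is read from this count. Among those in the gaps was the block used in 7 transcripts (chr21:17629638-17629775), which sat between peaks 5 and 6, 457 bp from the first and 635 bp from the second. The run had 14 splice sites, or 1.83 per 10 kb, and the peak-free 79.0 kb after it had 8, or 1.01 per 10 kb.

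The microRNA genes lay in intron 8, whose only listed peak was peak 19. The hairpins of miR-99a (chr21:17911409-17911489) and let-7c (chr21:17912143-17912236) were 653 bp apart, and that of miR-125b-2 (chr21:17962557-17962645) followed 50320 bp after let-7c. No microRNA gene of the host overlapped a peak. Peaks covered 4.17% of the gene and 0.884% of intron 8, so nothing is read from the lack of overlap for 3 short hairpins. Peak 19, between let-7c and miR-125b-2, was the nearest to all 3, with 21574 bp from let-7c, 22321 bp from miR-99a and 28131 bp from miR-125b-2. On the upstream side the nearest peak to let-7c was peak 18, 137617 bp away. Peak 19 itself was 992 bp downstream of an alternative exon of 52 bp (chr21:17932767-17932818) annotated in 1 transcript, and 2668 bp upstream of an exon used in 10.

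On the chromosomes with any listed peak, no other locus of these microRNA families was near one. Of 18 annotated loci of the let-7, miR-99/100 and miR-125 families, 9 lay on a chromosome with any listed peak, and the 3 of LINC00478 were the only ones within 100 kb of one. LINC00478 was selected on its count of listed peaks, and the share of all genes within 100 kb of a peak is not given. Nothing is therefore read from this contrast. The next closest was let-7i, 981 kb from a peak assigned to DPY19L2. The cluster of miR-99b, let-7e and miR-125a on chromosome 19, which joins the same families, was 2767 kb from a listed peak, and let-7a-3 and let-7b on chromosome 22 were 3898 kb from one. Peaks were listed on 8 chromosomes only, so the loci elsewhere could not be compared.

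One small RNA gene of LINC00478 did lie in a peak. SNORD74, a C/D box small nucleolar RNA annotated on the minus strand and so antisense to the host (chr21:17657017-17657089, 73 bp), lay entirely within peak 11 (chr21:17656036-17657265), 981 bp from its start and 176 bp from its end. RefSeq names a gene of the same length on chromosome 21 SNORD74B and uses SNORD74 for one on chromosome 1. The sequence of the hg19 minus strand is printed 5′ to 3′, with each match to TGATGA, the core of the C box, in capitals.
SNORD74 in peak 11: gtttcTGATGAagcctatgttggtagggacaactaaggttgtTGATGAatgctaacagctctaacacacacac

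The box was matched 2 times, first at base 6. Along the minus strand of the gene, 2.43% of 9836 consecutive windows of 73 bp held TGATGA and 0.142% held it 2 times. SNORD74 is annotated as a C/D box RNA, so nothing is read from this difference. The letters CTGA of the D box occurred once, at base 5, overlapping the first TGATGA. SNORD74 was the only small nucleolar RNA gene under any of the 368 peaks. The only other small RNA gene under a peak was a microRNA gene in an HMGA2 intron, AC090673.1, which its peak overlapped by 8 bp. How many such genes lie on the chromosomes with listed peaks is not given here, so both overlaps are descriptions only. GENCODE gave the name SNORD74 to 6 further genes, on chromosomes 4, 10, 12, 15 and X, and no listed peak lay over the 2 on chromosome 12. The others lay on chromosomes without any listed peak and could not be compared. The most alike was 79.5% identical to the copy in LINC00478 and the least 66.3%. Because the list gives no strand, whether the reads under peak 11 came from the strand of the host or of SNORD74 could not be told apart.

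The same limit held for antisense genes. Peaks 14 and 15 lay within the span of an unnamed antisense long non-coding gene, ENSG00000270071 (chr21:17663400-17682703), though over none of its exons. The other 3 antisense long non-coding genes inside LINC00478 were 14.9, 53.6 and 12.6 kb from the nearest peak. The small nuclear RNA copy RNU6-426P in intron 2 was 35.6 kb away, and the processed pseudogenes VDAC2P1 and RPS26P5 in intron 3 were 22.5 and 49.4 kb away. Of the 12 genes annotated inside LINC00478, 8 were on the opposite strand.

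Around the gene the list was sparse. The neighbouring protein-coding genes USP25, a ubiquitin protease 48.2 kb before it, and CXADR, a virus receptor and junction protein 867 kb after it, had 0 listed peaks. The nearest listed peaks of other genes were one in an exon of NRIP1, 1104 kb before peak 1, and one in an intron of LOC101927843, 5530 kb after peak 19. Chromosome 21 held 48 listed peaks in all.

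Base composition of the peaks was close to that of the rest of the gene. The peaks together were 36.3% G or C against 35.5% for the gene outside them, with 32.6% and 34.0% T on the strand of the gene. Single peaks ran from 30.2% in peak 2 to 48.6% in peak 17, with a median of 36.3%. As a measure of how many bases could be placed in the genome, 93.5% of the 32-base words starting in peaks occurred once in hg19, against 90.4% in the rest of the gene. Intron 5 had 95.9% in peaks and 94.8% outside them. Peak 17 stood apart with 54.0%, followed by peak 7 with 78.0% and peak 18 with 81.0%, so these 3 had the largest shares of words that also occur elsewhere in the genome. How the aligner's multiple hits were counted is not given in the sources used here, and the part of repeated sequence in these peaks was not tested.

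A pair of short motifs was counted in bins of 205 bp on both strands, in 146 bins of the peaks and 3356 bins of the gene outside them. The letters GTAAGT, the consensus of a 5′ splice site, were in 3.42% of peak bins and 5.10% of other bins on the strand of the gene, and in 4.11% and 3.87% on the opposite strand. Of the 5 matches in peaks on the strand of the gene, 2 lay in peak 19, though not in the middle bin printed above. Peak 9 held 2 and peak 4 held 1. The letters CTACCTC, which pair with the let-7 seed, were in 4 peak bins (2.74%) and in 0.924% of other bins on the strand of the gene, and in 0 and 0.566% on the opposite strand. Per kb on the strand of the gene, that was 0.134 matches in the peaks, 0.0451 in the rest of the gene and 0.0920 in intron peaks of other genes. These motifs cannot overlap each other on the same strand, and a match is a description of letters, not a site or a cause. Of the 4 matches, 1 lay in peak 9, 1 in peak 13 and 2 in peak 18, where 81.0% of 32-base words occurred once in hg19. From each of these peaks 1 match is shown with 10 bases on each side, plus strand of hg19, with the motif in capitals (chr21:17643696-17643722, chr21:17661400-17661426 and chr21:17772212-17772238).
Peak 9: tttaaagtccCTACCTCttaatacatc
Peak 13: tgactggtatCTACCTCcattggtttc
Peak 18: gtatggcctcCTACCTCtgtttatact

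For comparison, the last exon of HMGA2, the let-7 target of the study, held 4 matches to the same letters in 3047 bp (chr12:66357025-66360071, hg19, plus strand). Over the first 3047 bases of the 4374 other protein-coding last exons at least that long, 17.2% held at least 1 match, and 2 of them held as many. HMGA2 was chosen as a known let-7 target, so its matches are a description and nothing is read from the difference. Each HMGA2 match is shown in the same way, at chr12:66357083-66357109, chr12:66358318-66358344, chr12:66358730-66358756 and chr12:66359583-66359609.
HMGA2, match 1: cgttcgatttCTACCTCagcagcagtt
HMGA2, match 2: ctactcaataCTACCTCtgaatgttac
HMGA2, match 3: ttgcaaagacCTACCTCcagacttcaa
HMGA2, match 4: aaacacactaCTACCTCttaagtccca

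No listed peak lay over this exon. The nearest was 9.42 kb away, and all 42 HMGA2 peaks were assigned to introns, as were all 19 of LINC00478. Neither the let-7c hairpin nor the let-7 sites of its target were under a listed peak. Peaks covered 4.17% of LINC00478 and 25.5% of HMGA2, so nothing is read from the lack of overlap with these short stretches.

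Genes of the let-7 pathway, from a list of 36 processing enzymes, regulators and targets, were looked up in the list. Of the 17 on chromosomes with any listed peak, 3 had one: HMGA2 with 42, CCND2 with 5 in introns, and IGF2BP1, an mRNA-binding protein, with 1 in its 3′ UTR. Of all 7607 protein-coding genes annotated on these chromosomes, 1.84% had a listed peak, but HMGA2 was put on the list as the main gene of the study and with its peaks known, so nothing is read from the difference. The processing genes DGCR8, TARBP2, AGO1, AGO3, AGO4 and TUT4 and the let-7 inhibitor LIN28A had none. Among 17 other long non-coding host genes of microRNAs, 4 were on such chromosomes (MIRLET7BHG, MIR22HG, MIR155HG and MIR9-1HG) and none had a listed peak. Of the 6529 long non-coding genes annotated there, 10 (0.153%) had one. The list types 27 genes as non-coding RNA, so this share may be too low. With either count, 0 of 4 says nothing about microRNA hosts.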

How the data were processed

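RNA was sequenced from 1 anti-FLAG immunoprecipitate and 1 input of A2780 cells ectopically expressing Flag-USP39. The authors trimmed reads, removed rRNA sequences, aligned the rest to hg19 with TopHat2 2.0.13 (version per the submitters' processing notes) and called peaks with RIPSeeker, a hidden Markov model on binned reads, at an eFDR below 0.05. How the input entered the calling is not given in the sources used here. The deposited values are other than measurements of level: they are the first and last positions of each peak as the authors gave them, in hg19, counted from 1. Other columns of per-sample values numbered 0.

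Peaks were taken by the gene name in the list, matched through its gene identifier to RefSeq and GENCODE release 44 lifted to GRCh37. Distances are the bases between facing edges, an overlap is at least 1 bp, and introns are those of the canonical transcript. A peak was near a splice site with any base within 100 bp of it. Interval functions were tested on simulated data. Python 3.11.15, numpy 2.4.6, pysam 0.24.0, biopython 1.88 and matplotlib 3.10.9 were used. With 1 library of each kind no test between libraries was made, and comparisons with other peaks are descriptions.

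The genes named are LINC00478, the genes inside and beside it, loci of its microRNA families, HMGA2, other genes with at least 5 listed intron peaks, and the let-7 pathway and microRNA host lists; NRIP1, LOC101927843 and DPY19L2 are named as the genes of the nearest peaks. The members and lists were chosen with earlier results of these data known. The sequence of 1 motif match is not reported here.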

Additional observations from a re-analysis of the deposited data

How the results depend on the processing

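Across 10 results, 18 of 22 alternatives stayed within 1.5 times the value given above and 4 moved further. Merging peaks no more than 5000 bp apart left 7 in place of 19, by construction. With the canonical transcript only, 1 peak overlapped an exon and 1 was near a splice site, in place of 3 each, because fewer exons were counted; taking the midpoint of the peak left 1 near a splice site, since 1 base replaced the whole peak. The intron with the most peaks held 10 to 17 in the 27 other transcripts that span all 19, and 15 in 20 of these. The introns of the transcripts that the list names were not run, since their hg19 exons were not used here. Merging across 2 empty bins and the count of midpoints before the middle of an intron (14 to 18 in those transcripts) were chosen after seeing the data. No paired analysis was possible because each kind of library was made once. Edges are no finer than 1 bin. The paper plots the fold enrichment of its peaks, but the list gives no read count or enrichment, so the strength of a peak could not be read from it.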
